A study of Mus musculus with 8 samples.

Results

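Livers of mice that had lived for 30 weeks with both constant light and fine particulate air pollution (LL-PM2.5) were compared with livers of mice that had neither exposure (LD-FA). The comparison covered 4 of the 8 RNA-seq libraries of the study, 2 from each group, chosen by their titles, and every gene with at least 1 FPKM (fragments per kilobase of transcript, scaled to a library's total) in at least 2 of the 8 libraries, 11316 genes. All mice were wild-type C57BL/6. LL-PM2.5 mice had light around the clock and air with PM2.5, airborne particles small enough to reach the deep lung. LL-FA mice had constant light and filtered air, LD-PM2.5 mice had a light/dark cycle and PM2.5, and LD-FA mice had a light/dark cycle and filtered air. The question of the study is how polluted air bears on the liver clock, and constant light serves as another way to disturb that clock. Because LL-PM2.5 and LD-FA differ in light and in air at once, the contribution of each cannot be told apart within this comparison. For age, sex and the time of day at collection, the labels give no value. They also do not state that the 2 libraries of 1 group are separate animals, and p-values may then reflect technical spread alone.

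The liver clock is a feedback loop of transcription factors. BMAL1 (gene Arntl) pairs with CLOCK or NPAS2 and switches on genes with E-box elements, among them the repressors Per1, Per2, Per3, Cry1 and Cry2, the nuclear receptors Nr1d1 and Nr1d2 (REV-ERBs) and the output factors Dbp and Tef. REV-ERBs in turn repress Arntl, Npas2 and Nfil3, so the E-box genes and the Arntl group peak at opposite times of day. The clock then drives daily programmes of bile acid, lipid and drug metabolism in hepatocytes, and the same cells secrete acute phase proteins into blood when cytokines signal inflammation.

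The LL-PM2.5 libraries held 29758000 and 25832000 estimated fragments and the LD-FA libraries 26851000 and 31819000. Hepatocyte transcripts were abundant everywhere: 12 measured hepatocyte markers summed to 26738 and 30042 FPKM in LL-PM2.5 and to 30783 and 25494 FPKM in LD-FA. Transcripts of other tissues were present in some libraries. The 14 markers of pancreatic acinar cells summed to 19.3 and 429 FPKM in LL-PM2.5, and to 4410 and 34.8 FPKM in LD-FA. The 13 markers of skeletal muscle summed to 1.86 and 0.895 FPKM in LL-PM2.5, and to 403 and 46.3 FPKM in LD-FA, and all 13 had non-overlapping groups. LL-FA replicate 1, outside the comparison but part of the shared fit, reached 803 FPKM for the muscle markers. Among the libraries compared, LD-FA replicate 1 stands apart. Many counts and medians of gene lists turned on that library or on another, and the values without it stand beside them. Counts at an unadjusted p under 0.05 in edgeR moved over all tested genes too. They fell without LD-FA replicate 1 and rose without LL-PM2.5 replicate 1. A change in a list's count is therefore not by itself a trait of that list. Xist was at or near 0 and Ddx3y lay between 6.63 and 16.4 FPKM in all 8 libraries, the pattern of male tissue.

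**Figure D1:**
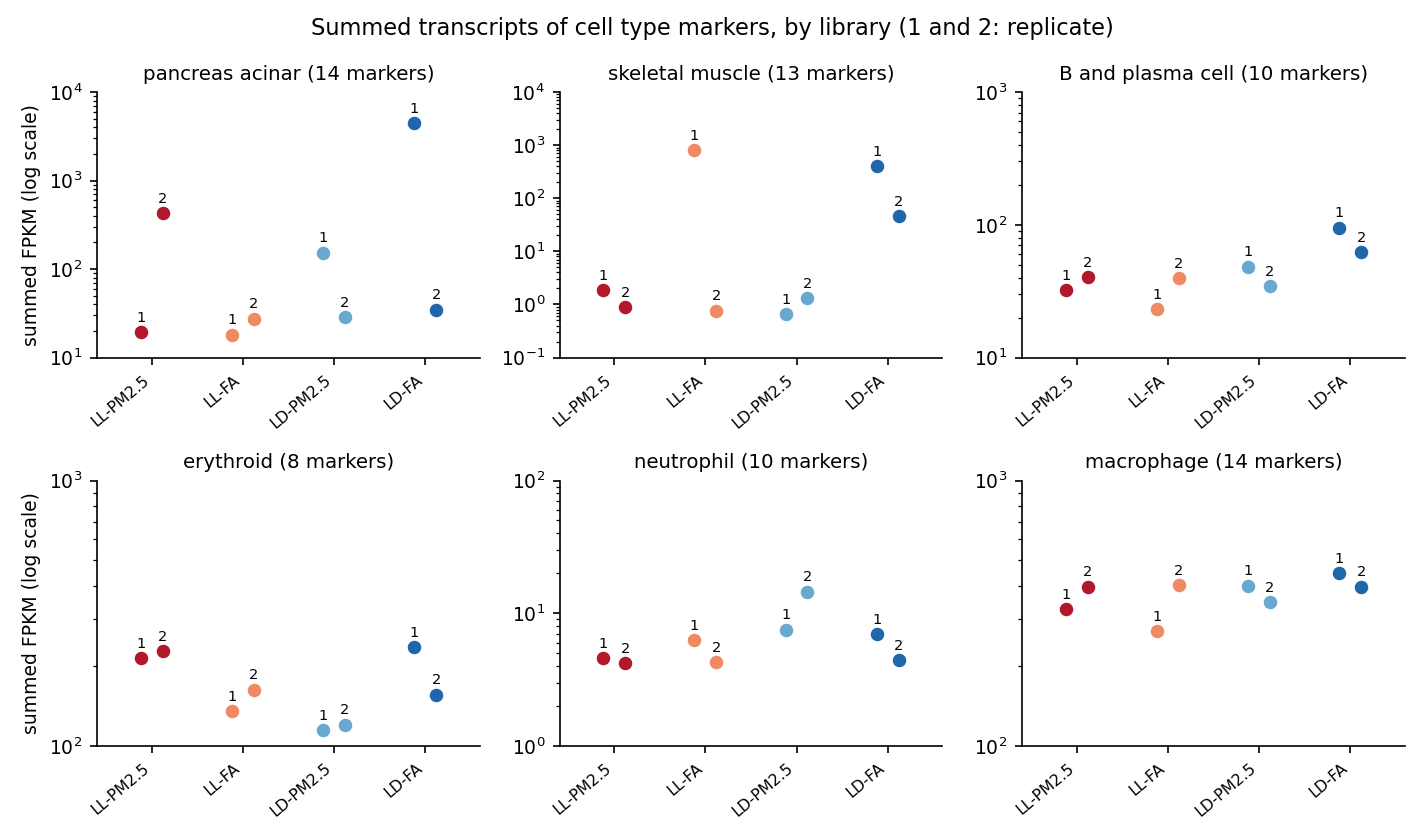
Summed FPKM (log axis) of the marker genes of 6 cell types in each library, with the replicate number above each point and the groups from left to right LL-PM2.5, LL-FA, LD-PM2.5 and LD-FA. Pancreas markers reach 4410 FPKM in LD-FA replicate 1 and 429 FPKM in LL-PM2.5 replicate 2. Muscle markers reach 803 FPKM in LL-FA replicate 1 and 403 FPKM in LD-FA replicate 1. Macrophage sums in LL-PM2.5 and LD-FA lie between 328 and 448 FPKM.

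Clock genes headed the comparison in both directions. Dbp had the largest positive log2 fold change of all tested genes, 4.22, and Arntl the smallest unadjusted p. Neither reached the threshold: 0 of 11316 genes (0%) had an adjusted p under 0.05 in edgeR's quasi-likelihood test (Benjamini-Hochberg adjustment over these genes), and the smallest adjusted p was 0.0642, shared by Dbp and Arntl. Without adjustment, 759 genes (6.71%) had a p under 0.05 in edgeR, 340 higher (3.0%) and 419 lower (3.70%) in LL-PM2.5. The groups did not overlap for 3340 genes (29.5%), 1379 higher (12.2%) and 1961 lower (17.3%). Counts within the gene lists below are to be read beside these shares. DESeq2 called 96 of the 11096 genes it could adjust (0.865%), 35 higher (0.315%) and 61 lower (0.55%), among them the 20 leading genes below and 7 genes of the E-box and opposite phase clock lists. Limma-trend on log2(FPKM + 1) called 1 (0.00884%), the short Y RNA gene Rny3. No gene below is therefore described as changed, and each log2 fold change is LL-PM2.5 over LD-FA with its standard error (SE, n = 2 each). Without LD-FA replicate 1, edgeR called 0 genes and 302 had an unadjusted p under 0.05. Leaving out LL-PM2.5 replicate 1 gave 7 calls, and leaving out LD-PM2.5 replicate 1 gave 1.

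**Figure D2:**
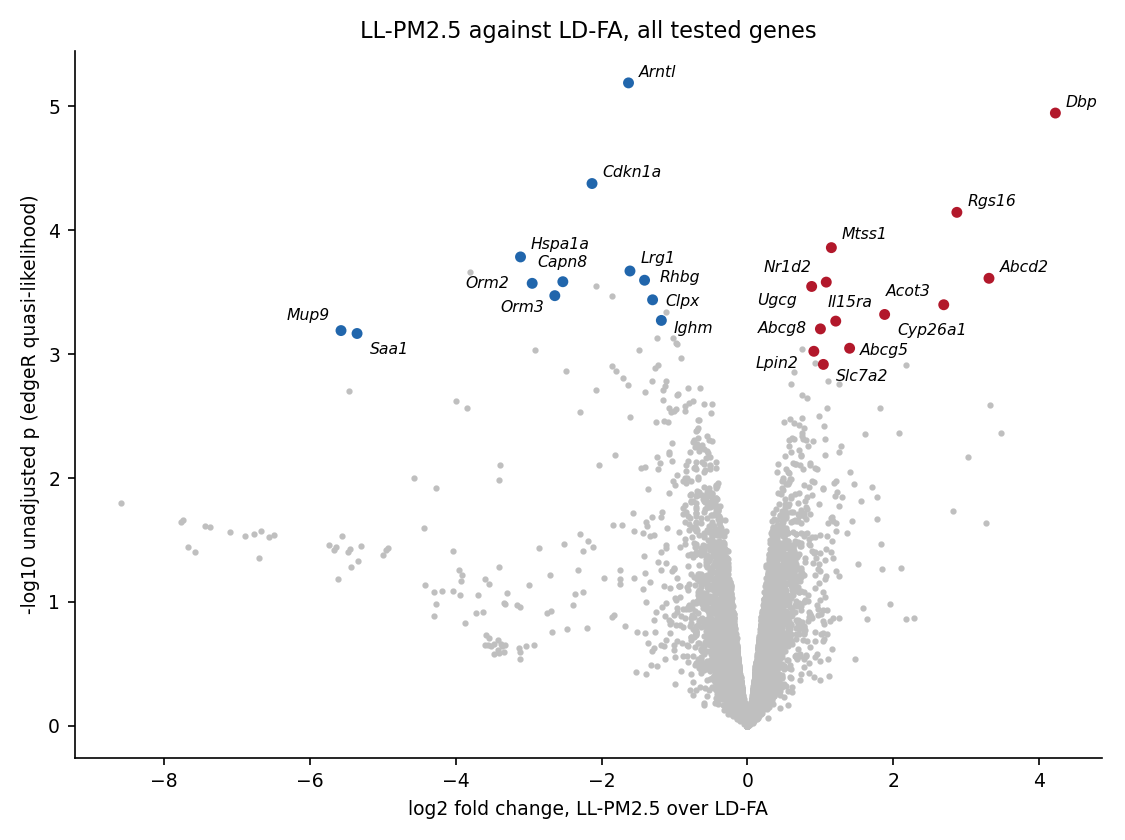
Each grey point is 1 of the 11316 tested genes, with the log2 fold change of LL-PM2.5 over LD-FA on the horizontal axis and minus log10 of edgeR's unadjusted p on the vertical axis. Coloured points are the 20 leading genes and 5 others named in the text (red higher, blue lower in LL-PM2.5). Arntl at -1.63 and Dbp at 4.22 stand highest, and the grey points on the far left include the skeletal muscle markers, down to -8.58.

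Promoters of 4 clock genes are printed because E-boxes and REV-ERB sites are the elements that separate the E-box group from the Arntl group. Each is 300 bases of RefSeq sequence on GRCm38.p6, 250 before and 50 from the annotated start, 5′ to 3′ on the gene's own strand, with matches in capitals. Dbp lies at chr7:45704997-45705296 (+ strand), Arntl at chr7:113207261-113207560 (+ strand, the entry of 2 that held a match), Tef at chr15:81802423-81802722 (+ strand, the entry of 2 that held a match) and Ciart at chr3:95882179-95882478 (- strand).
Dbp: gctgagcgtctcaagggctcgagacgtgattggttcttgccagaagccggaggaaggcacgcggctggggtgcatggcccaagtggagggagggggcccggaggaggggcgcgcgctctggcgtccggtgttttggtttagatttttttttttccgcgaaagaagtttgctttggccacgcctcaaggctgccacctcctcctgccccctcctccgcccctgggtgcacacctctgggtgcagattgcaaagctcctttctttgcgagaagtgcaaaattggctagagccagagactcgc
Arntl: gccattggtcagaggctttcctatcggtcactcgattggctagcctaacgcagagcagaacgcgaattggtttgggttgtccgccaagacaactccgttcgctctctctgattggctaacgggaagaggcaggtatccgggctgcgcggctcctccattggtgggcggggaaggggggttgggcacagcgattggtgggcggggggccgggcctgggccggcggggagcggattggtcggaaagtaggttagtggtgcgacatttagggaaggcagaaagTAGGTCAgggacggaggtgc
Tef: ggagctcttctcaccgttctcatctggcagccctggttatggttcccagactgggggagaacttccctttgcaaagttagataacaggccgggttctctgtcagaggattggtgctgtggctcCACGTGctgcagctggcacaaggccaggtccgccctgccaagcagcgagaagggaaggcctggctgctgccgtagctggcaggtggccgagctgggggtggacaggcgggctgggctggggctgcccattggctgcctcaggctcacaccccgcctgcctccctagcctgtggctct
Ciart: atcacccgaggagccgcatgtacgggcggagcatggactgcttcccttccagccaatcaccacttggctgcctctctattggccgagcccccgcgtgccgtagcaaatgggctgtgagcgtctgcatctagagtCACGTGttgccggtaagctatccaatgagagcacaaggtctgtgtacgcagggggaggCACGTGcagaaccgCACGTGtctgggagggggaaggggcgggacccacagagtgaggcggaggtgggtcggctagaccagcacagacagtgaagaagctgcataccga
Both strands were searched for the E-box CACGTG and for the ROR and REV-ERB element TAGGTCA, as exact letters, and these motifs do not overlap in the sequences shown. CACGTG occurs in 7.15% and TAGGTCA in 2.61% of the 32851 mouse promoters of the same length. Tef had 1 E-box starting at -127, Ciart had 3, at -116, -58 and -44, and Arntl had 1 TAGGTCA starting at 31 after the start. Tef and Ciart were picked for their matches. The genes first chosen beside Dbp and Arntl, by smallest unadjusted p, were Cdkn1a, Rgs16, Lrg1 and Capn8. Their windows held no match and are not printed. The window of Dbp held neither string, which says only that these letters are not in this stretch. Of the E-box driven clock genes with a promoter entry, 4 of 10 held CACGTG (Per1, Cry1, Tef and Ciart), and 2 of 5 opposite phase genes held TAGGTCA (Arntl and Nfil3). The D-box TTATGNAA, the site of Dbp, Tef and Nfil3 proteins, was in 2 of the same 10 (Per1 and Per3) and in 3.38% of all promoters. A list gene was counted if any of its entries held the motif, while the percentages are over single entries. Genes with several entries had more chances, so counts and percentages are not on the same footing.

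E-box driven clock genes stood higher in LL-PM2.5. Of the 12 tested members of this list, 10 had a positive log2 fold change, 5 were higher and 0 lower at an unadjusted p under 0.05, and 9 were higher with non-overlapping groups and 1 was lower. Their median was 1.0, beside 0.00 over all tested genes. Over all tested genes 3.0% were higher and 3.70% lower at that level. Groups were apart with LL-PM2.5 higher for 12.2% and lower for 17.3% of all tested genes. Dbp (chromosome 7, 45705088 to 45710203, GRCm38/mm10), which encodes a transcription factor of daily output genes, had 32.9 and 54.0 FPKM in LL-PM2.5, 3.86 and 9.08 in LL-FA, 9.12 and 13 in LD-PM2.5, and 2.77 and 2.05 in LD-FA. Both LL-PM2.5 libraries exceeded the other 6, and the mean was 43.5 ± 15 FPKM in LL-PM2.5 against 2.41 ± 0.509 FPKM in LD-FA (SD, n = 2 each), 18.6-fold higher by the fitted value. Its log2 fold change was 4.22 ± 0.41 (SE), with an adjusted p of 0.0642 in edgeR.

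The other members of that list with an unadjusted p under 0.05 were repressors and output factors. Nr1d2 (REV-ERB beta, a repressor of Arntl) had 19.2 and 16.3 FPKM in LL-PM2.5 against 9.76 and 6.65 FPKM in LD-FA, with a log2 fold change of 1.08 ± 0.17. Tef, a sister factor of Dbp, had 30.4 and 24.4 FPKM in LL-PM2.5 against 7.10 and 8.82 FPKM in LD-FA, 1.81 ± 0.41. In both genes the groups were apart by more than the spread within them. Per3, a clock repressor, was scarce, with 1.16 and 1.52 FPKM in LL-PM2.5 against 0.111 and 0.138 FPKM in LD-FA, 3.33 ± 0.75. Ciart, a repressor of CLOCK and BMAL1 activity, had 0.968 and 1.75 FPKM in LL-PM2.5 against 0.129 and 0.145 FPKM in LD-FA, 3.02 ± 0.81. Both genes were near or under 1 FPKM in LD-FA, so their folds rest on few fragments there.

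Other core repressors were less separated. Nr1d1 (REV-ERB alpha) had 37.8 and 39.8 FPKM in LL-PM2.5 against 22 and 20.1 FPKM in LD-FA, yet its log2 fold change of 0.92 ± 0.79 was close to its error. The shared model also takes in the spread of LD-PM2.5, which was wide here at 52.5 and 5.55 FPKM. Per1 was at 1.21 ± 0.54, Per2 at 0.80 ± 0.68 and Cry2 at 0.61 ± 0.34. Cry1 went the other way at -0.71 ± 0.65, with 2.90 and 2.71 FPKM in LL-PM2.5 against 5.36 and 3.97 FPKM in LD-FA. None of these 5 had an unadjusted p under 0.05 in edgeR. Without LD-FA replicate 1 the list had 5 members higher and 0 lower at that level, with a median of 0.99, and Per2 was at 0.31. With either LD-PM2.5 library left out it had 8 higher and 1 lower.

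**Figure D3:**
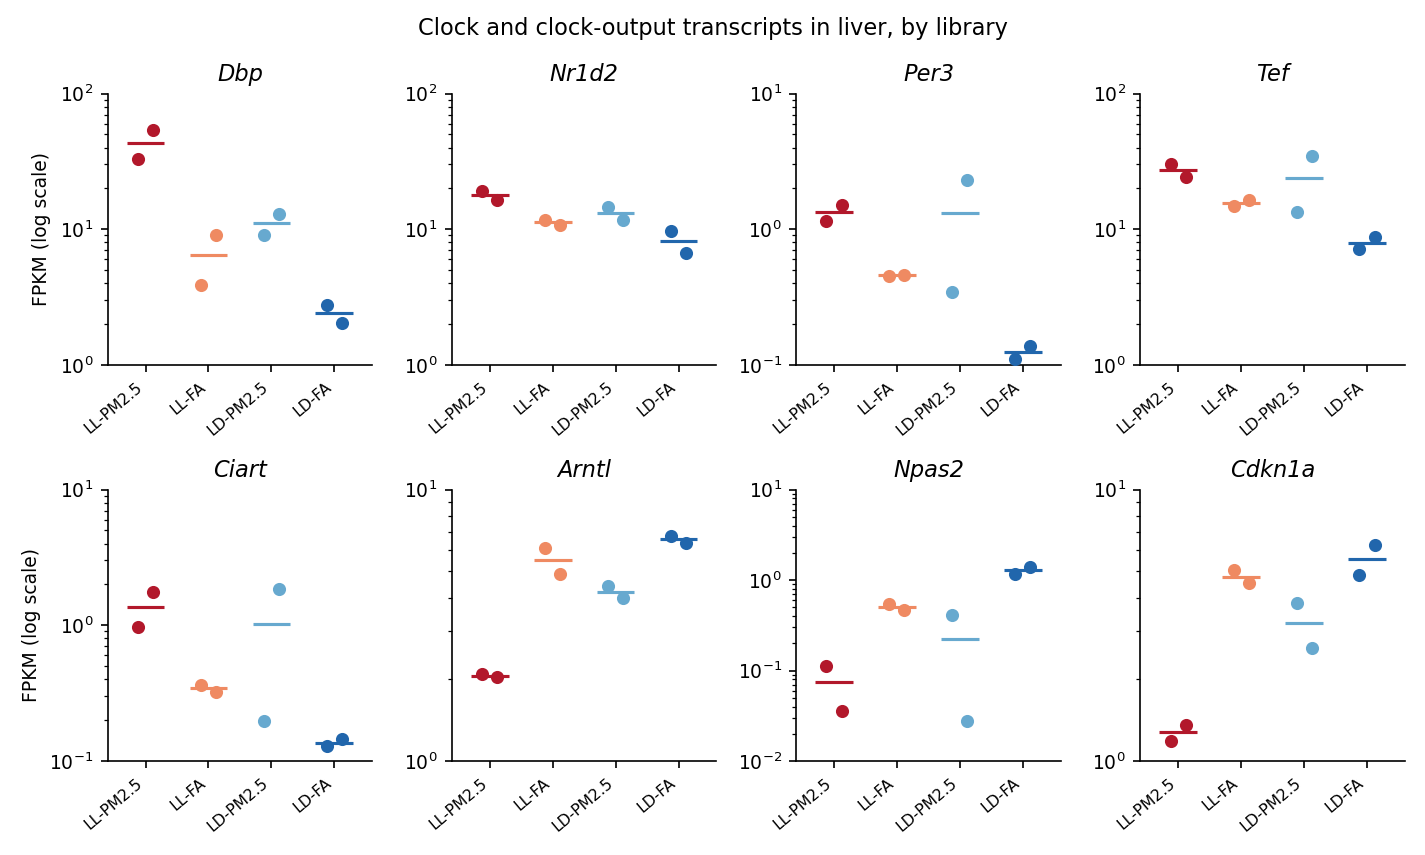
FPKM (log axis) of 5 E-box driven clock genes (Dbp, Nr1d2, Per3, Tef, Ciart), 2 opposite phase genes (Arntl, Npas2) and the rhythmic output Cdkn1a in each library. Points are libraries and bars are group means, with groups from left to right LL-PM2.5, LL-FA, LD-PM2.5 and LD-FA. Dbp is at 32.9 and 54.0 FPKM in LL-PM2.5 against 2.77 and 2.05 FPKM in LD-FA, and Arntl at 2.09 and 2.04 FPKM against 6.75 and 6.35 FPKM.

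The opposite phase genes stood lower, though not all of them. Of 6 tested members, 0 were higher and 3 lower at an unadjusted p under 0.05, and the median was -0.43. Arntl (chromosome 7, 113207465 to 113314126), which encodes BMAL1, had 2.09 and 2.04 FPKM in LL-PM2.5, 6.10 and 4.88 in LL-FA, 4.40 and 4.0 in LD-PM2.5, and 6.75 and 6.35 in LD-FA. The LL-PM2.5 libraries were the lowest 2 of the 8, and the log2 fold change was -1.63 ± 0.15, 3.09-fold lower, with an adjusted p of 0.0642 in edgeR. Npas2, which can replace CLOCK as partner of BMAL1, had 0.113 and 0.0357 FPKM in LL-PM2.5 against 1.17 and 1.41 FPKM in LD-FA, -3.85 ± 0.88. It reached 1 FPKM only in the LD-FA libraries and so passed the filter through the group where it was high. Its place among the 3 lower genes was thus favoured by the filter and adds no support. Nfil3, a repressor that competes with Dbp for the same sites, had 11 and 9.34 FPKM in LL-PM2.5 against 13.7 and 16.8 FPKM in LD-FA, -0.55 ± 0.17. Clock was at -0.24 ± 0.26 and Rora, an activator of Arntl, at 0.20 ± 0.19, and neither had an unadjusted p under 0.05 in edgeR. Leaving out replicate 2 of LL-PM2.5 gave a list median of -0.29 and leaving out replicate 2 of LD-FA gave -0.26, with 2 members lower each time. Clock was at 0.02 without replicate 2 of either LL-PM2.5 or LD-FA, while Arntl stayed between -1.74 and -1.52 whichever library was left out.

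Rhythmic outputs of the liver lay on both sides. Of 17 tested members, 3 were higher and 3 lower at an unadjusted p under 0.05, with a median of 0.35, and with either LD-PM2.5 library left out 9 were higher and 3 lower. Rgs16, a regulator of G protein signalling with a strong daily rhythm in liver, had 3.30 and 1.61 FPKM in LL-PM2.5, 0.0880 and 0.12 in LL-FA, 1.64 and 2.17 in LD-PM2.5, and 0.350 and 0.293 in LD-FA. Both PM2.5 groups were thus above both filtered-air groups, and the log2 fold change was 2.87 ± 0.36. Upp2, a uridine phosphorylase, had 199 and 183 FPKM in LL-PM2.5 against 52.4 and 56.9 FPKM in LD-FA, 1.77 ± 0.56. Por, the electron donor of the cytochrome P450 enzymes, had 105 and 109.6 FPKM in LL-PM2.5 against 58.4 and 43.6 FPKM in LD-FA, 1.16 ± 0.40.

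Cdkn1a (chromosome 17, 29090976 to 29100727), which encodes the cell cycle inhibitor p21, had 1.19 and 1.36 FPKM in LL-PM2.5, 5.04 and 4.52 in LL-FA, 3.83 and 2.61 in LD-PM2.5, and 4.86 and 6.27 in LD-FA. The LL-PM2.5 libraries were the lowest of the 8, and the mean was 1.28 ± 0.114 FPKM in LL-PM2.5 against 5.56 ± 0.995 FPKM in LD-FA (SD, n = 2 each). Its log2 fold change was -2.13 ± 0.25, with an adjusted p of 0.158 in edgeR. Elovl3, a rhythmic enzyme that lengthens fatty acids, had 212 and 131 FPKM in LL-PM2.5 against 537 and 513 FPKM in LD-FA, -1.64 ± 0.35. Avpr1a, the vasopressin receptor of hepatocytes, had 9.44 and 10.02 FPKM in LL-PM2.5 against 19.2 and 19.4 FPKM in LD-FA, -0.98 ± 0.18. In all 3 genes the groups were apart. Of 13 tested growth arrest genes, Cdkn1a was lower and 1 was higher at an unadjusted p under 0.05, with a median of 0.10. The higher gene, Gadd45a, a stress-induced growth arrest factor, had 3.62 and 5.86 FPKM in LL-PM2.5 against 1.12 and 2.12 FPKM in LD-FA, 1.46 ± 0.43. No gene of the list was higher at that level without LL-PM2.5 replicate 2 or without LD-FA replicate 1.

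The 10 leading genes that stood higher in LL-PM2.5 included Dbp and Nr1d2 and the sterol exporter pair Abcg5 and Abcg8. Since none passed the adjusted threshold, they were taken by smallest unadjusted p among genes whose groups did not overlap and whose mean reached 5 FPKM in LL-PM2.5 or LD-FA. Mtss1, a protein that bends membranes and binds actin, had 30.3 and 29.7 FPKM in LL-PM2.5 against 13.1 and 14.4 FPKM in LD-FA, 1.15 ± 0.16. Abcg5 and Abcg8 encode both subunits of the transporter that exports sterols into bile. Abcg5 had 33.3 and 41.7 FPKM in LL-PM2.5 against 13.6 and 14.9 FPKM in LD-FA, 1.40 ± 0.26, and Abcg8 had 28.6 and 31.3 FPKM against 12.8 and 17.8 FPKM, 1.0 ± 0.18. The annotated spans of these neighbours overlap on opposite strands of chromosome 17 (Abcg5 84658234 to 84683011, Abcg8 84676302 to 84700333), and the sources used here do not say whether fragments were counted by strand.

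Cyp26a1, the enzyme that breaks down retinoic acid, had 40 and 20.6 FPKM in LL-PM2.5 against 7.53 and 9.08 FPKM in LD-FA, 1.88 ± 0.32. Lpin2, a phosphatidate phosphatase on the way to triglyceride, had 49.4 and 36.7 FPKM in LL-PM2.5 against 19.7 and 25.8 FPKM in LD-FA, 0.91 ± 0.17. The remaining leading genes were Ugcg, which makes glucosylceramide (0.88 ± 0.14), Il15ra, the alpha chain of the interleukin 15 receptor (1.21 ± 0.21), and Slc7a2, a carrier of arginine and lysine (1.04 ± 0.21). None of the 10 changed sign whichever library was left out. Non-overlapping groups were a condition of their choice, so a change of sign was hardly possible. Their adjusted p-values in edgeR ranged from 0.0642 for Dbp to 0.344 for Slc7a2.

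Many acute phase proteins stood lower in LL-PM2.5. Of 26 tested members, 2 were higher and 10 lower at an unadjusted p under 0.05, 15 were lower with non-overlapping groups, and the median was -0.52. Over all tested genes the matching shares were 3.0% higher, 3.70% lower and 17.3% lower with groups apart. Saa1 (chromosome 7, 46740497 to 46742980), a serum amyloid A protein that hepatocytes release in inflammation, had 30.9 and 68.5 FPKM in LL-PM2.5, 39.9 and 43.7 in LL-FA, 2134 and 303 in LD-PM2.5, and 2851 and 1281 in LD-FA. Both constant-light groups lay below both light/dark groups, and the log2 fold change was -5.35 ± 0.96 (adjusted p = 0.296 in edgeR). Saa2 was at -5.46 ± 1.17, and the close similarity of both genes leaves the split of fragments between them uncertain. Lcn2, an iron-binding defence protein of hepatocytes and neutrophils, had 1.53 and 3.84 FPKM in LL-PM2.5 against 57.0 and 30.6 FPKM in LD-FA, -3.99 ± 0.89.

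The orosomucoids, plasma carriers of small molecules, also stood lower in LL-PM2.5 than in LD-FA. Orm2 (chromosome 4, 63362449 to 63365878) had 8.42 and 9.89 FPKM in LL-PM2.5 against 102 and 41.0 FPKM in LD-FA, -2.95 ± 0.46, and Orm3 was at -2.64 ± 0.42 and Orm1 at -1.07 ± 0.24. Lrg1, a leading gene outside the list that encodes a leucine-rich plasma glycoprotein, had 224 and 229 FPKM in LL-PM2.5 against 808 and 621 FPKM in LD-FA, -1.61 ± 0.24. Haptoglobin (Hp), which binds free hemoglobin, had 1429 and 1803 FPKM in LL-PM2.5 against 3825 and 2899 FPKM in LD-FA, -1.0 ± 0.23. In all of these the groups were apart. Serpina3n, a protease inhibitor, was at -1.05 ± 0.24, the plasma protein Itih4 at -0.72 ± 0.20 and Lbp, which binds bacterial lipopolysaccharide, at -0.68 ± 0.17.

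The higher members of the list were the hepcidin genes Hamp, whose liver hormone lowers iron uptake, and Hamp2. Hamp2 had 19.4 and 60.8 FPKM in LL-PM2.5, 2.73 and 5.42 in LL-FA, 3.04 and 4.91 in LD-PM2.5, and 8.35 and 11 in LD-FA, with a log2 fold change of 2.07 ± 0.51. Hamp had 2447 and 3157 FPKM in LL-PM2.5 against 833 and 1223 FPKM in LD-FA, 1.51 ± 0.65. In the iron handling list, 3 of 15 tested genes were higher and 0 lower at an unadjusted p under 0.05, with a median of 0.31, and the third was Slc40a1 at 0.70 ± 0.22, which encodes the iron exporter that hepcidin targets. Without LL-PM2.5 replicate 1 the iron list had 1 gene higher and a median of 0.15, and without LD-FA replicate 1 it had 1 higher and a median of 0.25. Hamp2 was at 1.09 without LL-PM2.5 replicate 2.

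Without LD-FA replicate 1, which had the highest Saa1, Orm2, Lcn2 and Hp levels of its group, 9 acute phase genes were lower and 2 higher at an unadjusted p under 0.05, with a median of -0.37. Saa1 was then at -4.69, Orm2 at -2.21 and Hp at -0.70. The 10 neutrophil markers summed to 4.57 and 4.19 FPKM in LL-PM2.5 against 6.95 and 4.41 FPKM in LD-FA, and the 14 macrophage markers to 328 and 398 FPKM against 448 and 398 FPKM. Their part in these values was not tested. In whole liver, fewer cells of a type and less RNA per cell cannot be told apart.

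**Figure D4:**
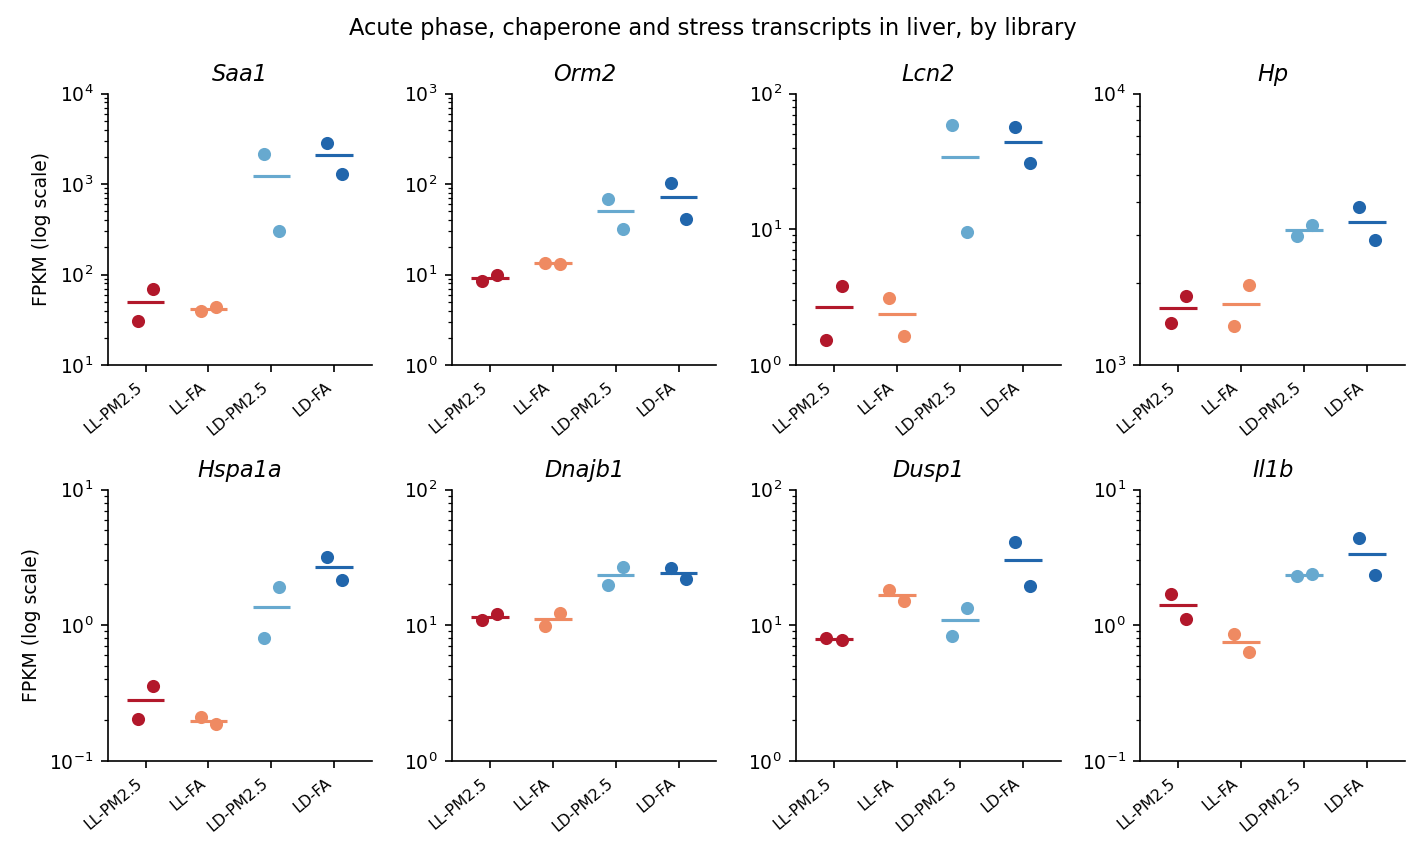
FPKM (log axis) of 4 acute phase genes (Saa1, Orm2, Lcn2, Hp), 2 chaperone genes (Hspa1a, Dnajb1), the immediate early gene Dusp1 and the cytokine gene Il1b in each library. Points are libraries and bars are group means, with groups from left to right LL-PM2.5, LL-FA, LD-PM2.5 and LD-FA. Saa1 is at 30.9 and 68.5 FPKM in LL-PM2.5 against 2851 and 1281 FPKM in LD-FA, and Hspa1a at 0.204 and 0.358 FPKM against 3.17 and 2.16 FPKM.

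Heat shock chaperones refold damaged proteins, and those of the cytosol also peak daily with feeding and body temperature. The list also holds the mitochondrial chaperones Hspd1 and Hspe1 and the transcription factor Hsf1. Of 16 tested members, 0 were higher and 4 lower at an unadjusted p under 0.05, with a median of -0.33. Hspa1a, the stress-inducible HSP70, had 0.204 and 0.358 FPKM in LL-PM2.5, 0.210 and 0.187 in LL-FA, 0.808 and 1.90 in LD-PM2.5, and 3.17 and 2.16 in LD-FA, -3.11 ± 0.45. The near-identical Hspa1b was at -1.82 ± 0.49. Dnajb1, the HSP40 that works with HSP70, had 11 and 12.2 FPKM in LL-PM2.5 against 26.2 and 22.1 FPKM in LD-FA, -1.02 ± 0.19, and the co-chaperone Bag3 was at -0.79 ± 0.21. All 4 had non-overlapping groups. The median of this list depended on LL-PM2.5 replicate 1: it was 0.06 without that library, with 4 members lower and 1 higher, and -0.75 without LL-PM2.5 replicate 2, with 6 lower.

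Counts of early stress and cytokine genes turned on single libraries, as did those over all tested genes. Of 15 tested immediate early genes, 1 was higher and 4 lower at an unadjusted p under 0.05, with a median of -0.11. Dusp1, a phosphatase that ends MAP kinase signalling, had 8.12 and 7.73 FPKM in LL-PM2.5 against 41.3 and 19.5 FPKM in LD-FA, -1.86 ± 0.37. Fos was at -2.19 ± 0.83, Ccn1 at -0.99 ± 0.30 and Jund at -0.71 ± 0.25, and Klf6 at 0.63 ± 0.26. Without LD-FA replicate 1 Fos was at -0.59, Dusp1 at -1.26 and Ccn1 at -0.51, and 1 of the 15 genes was lower at that level, with a median of 0.22. Leaving out LL-PM2.5 replicate 1 gave a median of 0.35 with 4 genes higher and 2 lower, and leaving out LL-PM2.5 replicate 2 gave -0.79 with 0 higher and 7 lower. Of 13 cytokine and NF-kB genes, 2 were lower and 0 higher, and the median of -0.51 became -0.09 when LL-PM2.5 replicate 1 was left out and -0.25 when LD-FA replicate 1 was. Il1b, an inflammatory cytokine of macrophages and neutrophils, had 1.70 and 1.11 FPKM in LL-PM2.5 against 4.36 and 2.36 FPKM in LD-FA, -1.25 ± 0.30, and Nfkbiz, an NF-kB cofactor, was at -0.68 ± 0.20. Of 21 interferon response genes, 3 were lower and 0 higher (Rsad2 at -0.66 ± 0.17, Irgm1 at -0.59 ± 0.15 and Oasl1 at -0.70 ± 0.23), with a median of -0.26. That median was -0.09 without LL-PM2.5 replicate 1, with 1 gene higher and 2 lower, and -0.10 without LD-FA replicate 1, with 3 lower.

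Sex-biased targets of growth hormone, which differ between male and female livers, stood lower. Of 15 tested genes of this list, 1 was higher and 6 lower at an unadjusted p under 0.05. With non-overlapping groups 10 were lower, and the median was -0.64. Over all tested genes the matching shares were 3.0% higher, 3.70% lower and 17.3% lower with groups apart. Mup9, a leading gene outside the list, encodes a major urinary protein, a carrier of pheromones, and had 3.94 and 0.636 FPKM in LL-PM2.5, 45.8 and 101 in LL-FA, 86.6 and 26.7 in LD-PM2.5, and 169 and 56.6 in LD-FA, -5.57 ± 0.99. Mup16, a member, had 53.3 and 5.85 FPKM in LL-PM2.5 against 461 and 154 FPKM in LD-FA, -3.39 ± 0.94. Mup genes are near-identical copies and several were left out for lack of an estimate, so values of single members are uncertain. The Mup genes left out, such as Mup2, Mup7 and Mup20, lacked an estimate in both LD-FA libraries but not in LL-PM2.5. The missing estimates thus differ between the compared groups, and their bearing on Mup9 and Mup16 was not tested. LL-PM2.5 replicate 2 was the lower library in each: without it Mup9 was at -4.84 and Mup16 at -2.55, and without LL-PM2.5 replicate 1 they were at -7.14 and -5.53.

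Outside the Mup family, the list member Selenbp2, a selenium-binding protein, had 99.1 and 227 FPKM in LL-PM2.5 against 850.2 and 573 FPKM in LD-FA, -2.08 ± 0.45. Cyp7b1, an enzyme of the alternative bile acid pathway, was at -0.76 ± 0.27. Without LD-FA replicate 1, 3 genes of the growth hormone list were lower and 1 higher at an unadjusted p under 0.05.

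Pericentral genes, which Wnt signals keep on in hepatocytes around the central vein, also stood lower. Of 16 tested members, 0 were higher and 6 lower at an unadjusted p under 0.05, with a median of -0.43. Rhbg, an ammonium transporter, had 2.71 and 2.34 FPKM in LL-PM2.5, 4.02 and 5.38 in LL-FA, 4.24 and 4.24 in LD-PM2.5, and 7.79 and 6.01 in LD-FA, -1.41 ± 0.22. Glul, glutamine synthetase, had 358 and 159 FPKM in LL-PM2.5 against 499 and 420.4 FPKM in LD-FA, -0.84 ± 0.28, and Cyp1a2 had 277 and 148 FPKM against 388 and 362 FPKM, -0.79 ± 0.27. The groups were apart for all 3, and in Glul and Cyp1a2 replicate 2 was the lower LL-PM2.5 library. Lgr5, a receptor that amplifies Wnt signals, was at -0.80 ± 0.18. Without LL-PM2.5 replicate 2 the median of the list was -0.05, with 4 members lower and 2 higher, Glul at -0.44 and Cyp1a2 at -0.41. The list median was -0.75 with 9 members lower when LL-PM2.5 replicate 1 was left out, and leaving out LD-FA replicate 1 gave 3 lower and 0 higher.

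The remaining leading genes that stood lower were of mixed function. Capn8, a calpain protease, had 1.26 and 0.487 FPKM in LL-PM2.5 against 4.65 and 5.56 FPKM in LD-FA, -2.53 ± 0.39. Clpx, the unfolding subunit of a mitochondrial protease, had 51.9 and 27.8 FPKM in LL-PM2.5 against 103 and 87.2 FPKM in LD-FA, -1.30 ± 0.21. Ighm, the heavy chain of immunoglobulin M, had 8.11 and 8.52 FPKM in LL-PM2.5 against 21.6 and 17.3 FPKM in LD-FA, -1.18 ± 0.20. The 10 B and plasma cell markers, which include Ighm, summed to 32.1 and 40.3 FPKM in LL-PM2.5 against 94.8 and 62.3 FPKM in LD-FA, and 2 of 4 tested were lower at an unadjusted p under 0.05.

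In fatty acid oxidation and synthesis the genes past an unadjusted p of 0.05 in edgeR were on the higher side. Their counts turned on single libraries, as did those over all tested genes. Of 29 tested genes of fatty acid oxidation and targets of the lipid sensor PPARa, 5 were higher and 0 lower at an unadjusted p under 0.05, with a median of 0.17. Without LL-PM2.5 replicate 1 the list had 2 higher and 3 lower and a median of 0.06, and without LL-PM2.5 replicate 2 it had 9 higher and 0 lower and a median of 0.39. Leaving out LD-FA replicate 1 gave 2 higher and 0 lower. Acot3, a thioesterase that releases fatty acids from coenzyme A, had 4.46 and 4.07 FPKM in LL-PM2.5, 2.24 and 1.61 in LL-FA, 1.39 and 3.49 in LD-PM2.5, and 0.542 and 0.771 in LD-FA, 2.69 ± 0.44. Cyp4a14, a fatty acid hydroxylase, had 218 and 82.6 FPKM in LL-PM2.5 against 3.49 and 33.8 FPKM in LD-FA, 2.82 ± 0.94. The LD-FA libraries were far apart for this gene, which was at 1.95 without LD-FA replicate 1 and at 5.44 without LD-FA replicate 2. Of 22 fatty acid synthesis genes, 4 were higher and 0 lower, with a median of 0.26: Lpin2, the desaturases Fads2 (0.61 ± 0.15) and Fads1 (0.45 ± 0.18), and Elovl6 (0.73 ± 0.27), which lengthens palmitate. The synthesis list without LD-FA replicate 1 had 1 higher and 1 lower and a median of 0.11, and without LD-FA replicate 2 it had 7 higher and 0 lower and a median of 0.55.

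Bile acid genes were split. Of 22 tested members, 4 were higher and 2 lower at an unadjusted p under 0.05, with a median of 0.05. Without LL-PM2.5 replicate 1 the list had 3 higher and 5 lower and a median of -0.11, and without LD-FA replicate 1 it had 3 higher and 1 lower. Cyp8b1, which steers bile acid synthesis toward cholic acid, had 162 and 99.9 FPKM in LL-PM2.5, 225 and 301 in LL-FA, 152 and 131 in LD-PM2.5, and 332 and 289.7 in LD-FA, -1.22 ± 0.24. Both PM2.5 groups lay below both filtered-air groups. Cyp7a1, the rate-limiting enzyme, was at 0.74 ± 0.41 and did not pass. Slco1a4, an uptake carrier of organic anions, had 14.8 and 17.3 FPKM in LL-PM2.5 against 8.75 and 4.11 FPKM in LD-FA, 1.41 ± 0.40. In cholesterol synthesis 0 of 25 genes were higher and 2 lower (Tm7sf2 at -0.40 ± 0.14 and the regulator Srebf2 at -0.39 ± 0.15), with a median of -0.37 and 20 negative values. The median was -0.13 without LL-PM2.5 replicate 1, with 0 lower, and 9 genes were lower with either LD-PM2.5 library left out.

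Amino acid breakdown had 5 of 35 tested genes higher and 2 lower at an unadjusted p under 0.05, with a median of 0.21. Over all tested genes 3.0% were higher and 3.70% lower, and these shares also moved with the libraries kept. Without LL-PM2.5 replicate 2 the list had 2 higher and 1 lower and a median of 0.08, without LD-FA replicate 1 it had 2 higher and 1 lower and a median of 0.15, and without LL-PM2.5 replicate 1 it had 8 higher and 2 lower. Sds, serine dehydratase, had 188 and 354 FPKM in LL-PM2.5 against 78.1 and 105 FPKM in LD-FA, 1.61 ± 0.40. Got1, the cytosolic aspartate aminotransferase, was at 0.95 ± 0.27 (0.59 without LL-PM2.5 replicate 2) and Mat1a, which makes S-adenosylmethionine, at 0.66 ± 0.24. Bhmt, which remethylates homocysteine, went the other way with 640.1 and 724 FPKM in LL-PM2.5 against 1462 and 1549 FPKM in LD-FA, -1.11 ± 0.23. Of 23 NRF2 antioxidant genes, 3 were higher and 0 lower (the glutathione transferases Gsta2 at 0.98 ± 0.32 and Gsta1 at 1.17 ± 0.41, and Nqo1 at 0.66 ± 0.24), with a median of -0.02. Leaving out LD-FA replicate 1 left 0 higher and 0 lower, with Gsta2 at 0.61, and without LL-PM2.5 replicate 2 there were 1 higher and 2 lower. Of 7 targets of the aryl hydrocarbon receptor, a sensor of combustion products, Nqo1 was higher and Cyp1a2 lower, with a median of 0.07, and 0 genes lay past that level without LD-FA replicate 1.

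Several programmes showed few or no genes past that level. Over all tested genes 3.0% were higher and 3.70% lower, so a single gene in such a list is no result about the list. Of 30 nuclear genes of oxidative phosphorylation, 0 were higher and 0 lower, with values between -0.29 and 0.10. Of 29 chromatin writers and erasers, a class the title of the study points to, 1 was higher (the DNA demethylase Tet3 at 0.40 ± 0.15) and 1 lower (the histone demethylase Kdm5b at -0.77 ± 0.23), with a median of 0.02. Of 20 genes of the unfolded protein response 1 was higher and 0 lower, and of 27 complement and coagulation genes 1 was higher and 3 lower, with C4b at -0.59 ± 0.17 and C9 at -0.70 ± 0.23. Glycolysis and gluconeogenesis, lipid droplets and heme synthesis had 0 genes past it in either direction among 20, 14 and 13 tested. With 1 library left out, complement and coagulation had up to 4 genes on 1 side, and the other lists named with them had up to 3. For the unfolded protein response the median of -0.01 became 0.40 when LL-PM2.5 replicate 1 was left out and -0.59 when replicate 2 was.

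**Figure D5:**
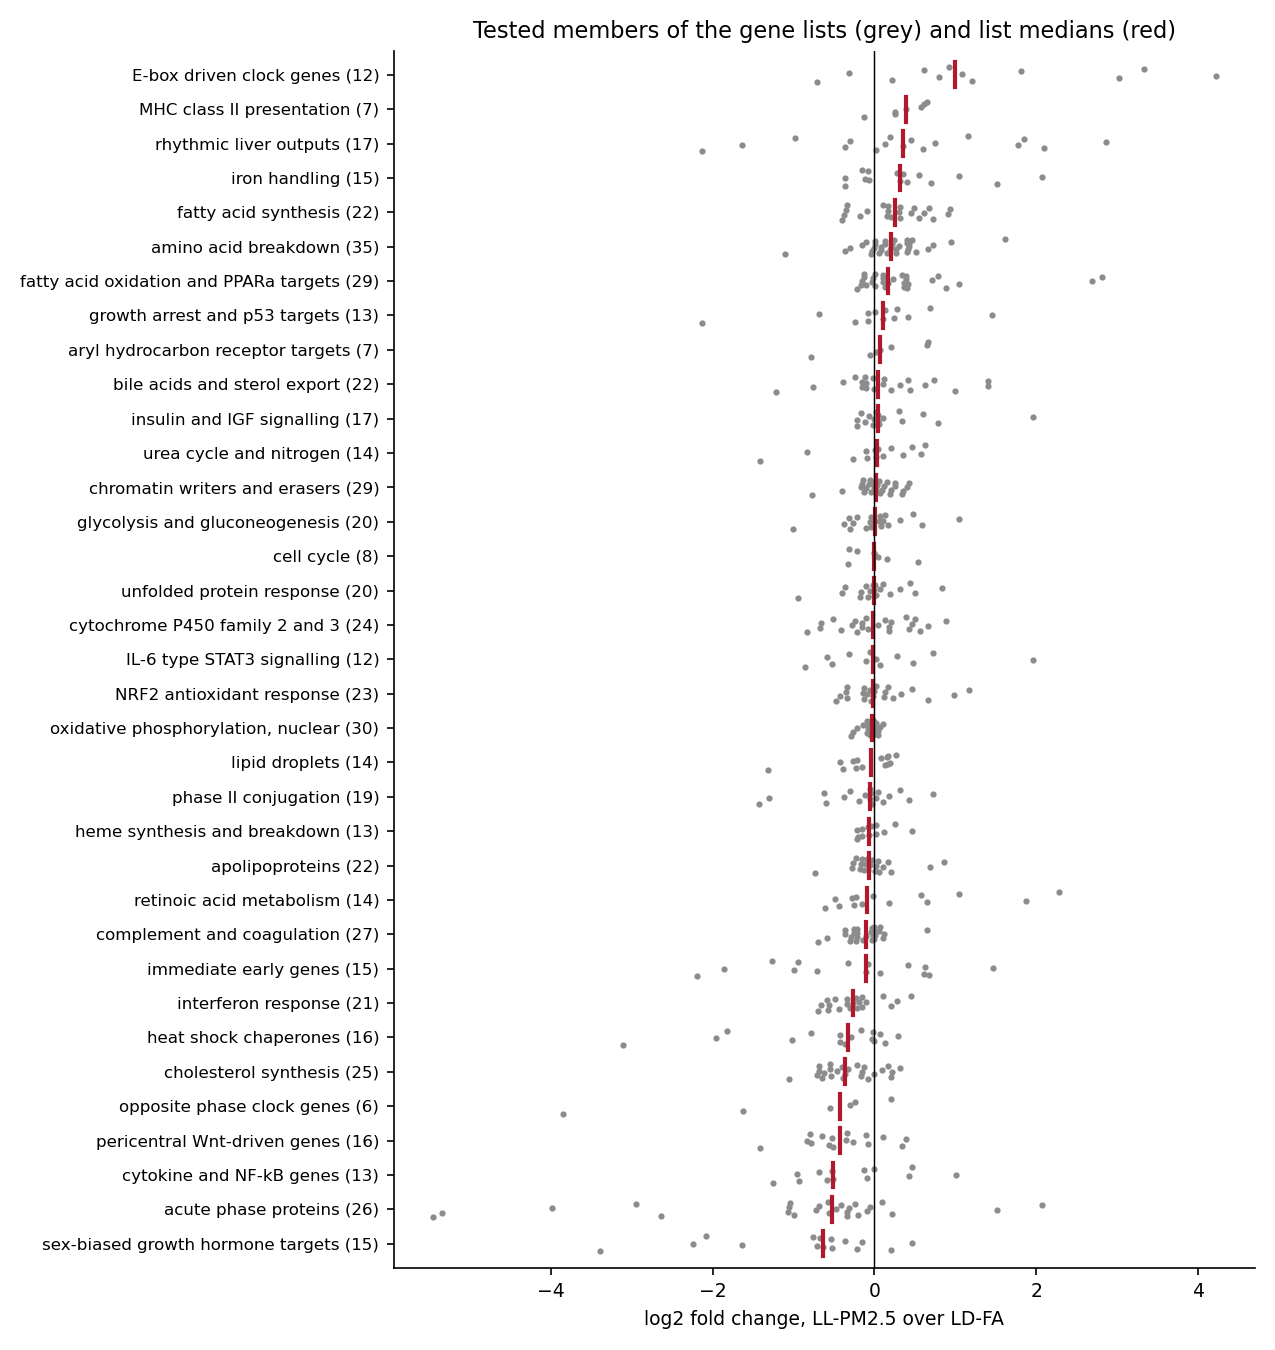
Log2 fold change of LL-PM2.5 over LD-FA (horizontal axis) for the tested members of 35 pathway and clock lists, 1 grey point per gene with vertical scatter for display, the list median in red and the number of tested members in parentheses. Lists run from the highest median at the top (E-box driven clock genes, 1.0) to the lowest at the bottom (sex-biased growth hormone targets, -0.64), around a median of 0.00 for all tested genes.

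The single exposures can be set beside both, each against the same LD-FA libraries, so these values share their denominator. For Dbp the log2 fold change was 4.22 ± 0.41 in LL-PM2.5, 1.41 ± 0.38 in LL-FA and 2.19 ± 0.38 in LD-PM2.5. For Arntl it was -1.63 ± 0.15 in LL-PM2.5, -0.27 ± 0.14 in LL-FA and -0.65 ± 0.14 in LD-PM2.5, and for Cdkn1a -2.13 ± 0.25, -0.19 ± 0.23 and -0.85 ± 0.24 in the same order. In these 3 genes the value with both exposures was the farthest from 0. Their lists did not all share this order. The median of the E-box list was 1.0 in LL-PM2.5, 0.28 in LL-FA and 1.27 in LD-PM2.5. Rhythmic outputs had medians of 0.35, 0.19 and 0.85 in the same order. Only in the opposite phase list was LL-PM2.5 the farthest from 0, with -0.43, -0.09 and 0.33. The LD-PM2.5 libraries were far apart for members such as Per2, at 1.85 and 9.33 FPKM. For Saa1 the log2 fold change was -5.35 ± 0.96 in LL-PM2.5, -5.61 ± 0.97 in LL-FA and -0.77 ± 0.80 in LD-PM2.5. For Hspa1a it was -3.11 ± 0.45, -3.48 ± 0.46 and -0.99 ± 0.41 in that order. Cyp26a1 was at 1.88 ± 0.32 in LL-PM2.5, 2.14 ± 0.32 in LL-FA and 0.15 ± 0.31 in LD-PM2.5. Here the values of the constant-light groups were near each other.

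Mtss1 showed the other arrangement, with 1.15 ± 0.16 in LL-PM2.5, 0.10 ± 0.16 in LL-FA and 1.46 ± 0.16 in LD-PM2.5. Rgs16 was at 2.87 ± 0.36 in LL-PM2.5, -1.39 ± 0.40 in LL-FA and 2.5 ± 0.36 in LD-PM2.5, and Cyp8b1 at -1.22 ± 0.24, -0.19 ± 0.24 and -1.13 ± 0.24 in that order. These 3 genes had near values in the PM2.5 groups. The differences between such values were not tested themselves, and no gene is called particular to both exposures from them.

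Whether both exposures together differ from the sum of the single ones is the interaction of PM2.5 and light, LL-PM2.5 minus LL-FA minus LD-PM2.5 plus LD-FA on the log2 scale. It called 0 of 11316 genes in edgeR (smallest adjusted p = 0.843), 552 genes (4.88%) had an unadjusted p under 0.05, and DESeq2 called 33. For Dbp the interaction was 0.62 ± 0.53 (edgeR unadjusted p = 0.281), for Arntl -0.71 ± 0.20 (edgeR unadjusted p = 0.00861) and for Cdkn1a -1.09 ± 0.34 (edgeR unadjusted p = 0.0133). Hamp2 had 4.44 ± 0.76, and it stood below LD-FA with either exposure alone, at -1.25 ± 0.53 in LL-FA and -1.12 ± 0.53 in LD-PM2.5. Alas1, the rate-limiting enzyme of heme synthesis, had 62.0 and 30.2 FPKM in LL-PM2.5, 70.4 and 164 in LL-FA, 160.0 and 191 in LD-PM2.5, and 42.5 and 49.9 in LD-FA. Its interaction was -3.26 ± 0.61, with 0.02 ± 0.42 in LL-PM2.5, 1.36 ± 0.42 in LL-FA and 1.93 ± 0.43 in LD-PM2.5 over LD-FA. None of these 5 passed the adjusted threshold.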

How the data were processed

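Liver RNA-seq of 8 libraries was used, 2 in each of 4 groups, while the ATAC-seq mentioned in the series description was not used here. STAR, Cufflinks, Cuffdiff and the build mm10 are named by the submitters' processing notes, and the sources used here do not give versions or options. The deposited table holds, per the file headers, an expected or estimated count of fragments for each gene and library, and FPKM, both as the authors computed them. Among nonzero fragment values, 97.4% were whole numbers to within 0.01, and all were rounded for the tests. The 47 of 48432 entries with a status other than OK in any library were left out. Among them were Alb, Apoe, Trf and several Mup genes. These entries list 1.07% of the fragments, but a gene without an estimate may list few fragments. The percentage is therefore not their share of liver RNA. Entries of the same symbol were added. Symbols and positions are from GENCODE vM21, which matched 48051 entries.

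Genes with at least 1 FPKM in 2 libraries were tested with edgeR 4.0.16 (TMM scaling, quasi-likelihood, 4 group means over all 8 libraries, two-sided, Benjamini-Hochberg adjustment, threshold 0.05). The fit had 4 residual and 3.46 prior degrees of freedom and a biological coefficient of variation of 21.4%. Each SE is the size of the log2 fold change over the square root of F (median 0.19). Within groups, libraries correlated at 0.959 to 0.980 (Pearson r across genes, which are not independent). Depth was 22215000 to 31819000 fragments a library. DESeq2 1.42.0, limma 3.58.1, R 4.3.3, Python 3.11.15, numpy 2.4.6, pandas 2.3.3 and matplotlib 3.10.9 were also used, and the test was tried on simulated data.

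The genes named are, per direction, up to 15 of largest fold change past the threshold or, with fewer than 10, the 10 of smallest unadjusted p, whose groups did not overlap and whose mean reached 5 FPKM in LL-PM2.5 or LD-FA. Added to these are members of 3 clock lists and, from each other list, at most the 5 of smallest p. The comparison and the lists were chosen with earlier results of these data known. The alternatives were other scalings, filters, tools, a replicate block, a fit of 4 libraries and leaving out libraries. Promoters are from RefSeq.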

Additional observations from a re-analysis of the deposited data

How the results depend on the processing

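Against 0 genes called by edgeR, quantile normalization gave 1 (Rny3, listed at 0 FPKM in the 6 libraries outside LL-PM2.5), limma-trend on log2(FPKM + 1) 1, a filter at 5 FPKM 2 (Arntl and Dbp), a robust variance prior 1 (Arntl), DESeq2 96, and no filter 486 of 23030 genes, 142 higher and 344 lower. Leaving out 1 library gave 0 to 7 calls, 7 without LL-PM2.5 replicate 1 and 1 when LD-PM2.5 replicate 1 was left out. For the interaction the counts were 2 under quantile normalization, 239 without a filter, 33 in DESeq2 and 2 in limma-trend on log2(FPKM + 1), against 0, and it could not be fitted on only the 4 libraries compared. The count at an unadjusted p under 0.05, 759, became 504 under quantile normalization, 1691 without a filter, 493 at 5 FPKM, 476 and 490 in limma-trend with pseudocounts of 1 and 0.1, and 302 to 989 when 1 library was left out. It was 302 without LD-FA replicate 1, 274 without LD-FA replicate 1 and LL-PM2.5 replicate 2, and 302 without replicate 1 of both LD-FA and LL-FA, the last chosen after seeing the data. The cause of these differences was not tested.

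Of 101 tested genes named in the text, 99 kept the sign of their log2 fold change under every alternative run. Many of them were named for small p-values or non-overlapping groups in these same libraries, so this count does not measure stability. Clock, at -0.24, ranged from -0.55 to 0.02 when 1 library was left out. Alas1, at 0.02, was -0.01 under quantile normalization, -0.09 in limma-trend with either pseudocount and without replicate 1 of both LD-FA and LL-FA, and -0.57 to 0.45 when 1 library was left out. With a replicate block edgeR called 0 genes for the comparison and 0 for the interaction. The difference of replicate 1 minus replicate 2 correlated across genes at -0.585 between LL-PM2.5 and LD-FA and at -0.262 to 0.334 between other groups. Libraries of the same number thus tended to deviate in opposite directions in the compared groups. A block on equal numbers cannot take up such opposite deviations. With 2 libraries a group, differences of low genes such as Npas2, Per3 and Ciart rest on few fragments.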

Other observations

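Further lists held few genes past an unadjusted p of 0.05 in edgeR, and none passed the adjusted threshold. Over all tested genes 3.0% were higher and 3.70% lower at that level, and single genes in a list are no result about it. Of 12 tested genes of IL-6 type STAT3 signalling, 1 was higher and 2 lower in LL-PM2.5, with a median of -0.02, and 0 were lower when either LL-PM2.5 library or LD-FA replicate 1 was left out. Pim3, a survival kinase, had 22.5 and 26.6 FPKM in LL-PM2.5 against 15 and 16.5 FPKM in LD-FA, with a log2 fold change of 0.72 ± 0.20 (SE), and Bcl3, an NF-kB cofactor, was at -0.86 ± 0.33. Of 22 apolipoprotein and lipoprotein genes, 2 were higher and 0 lower, with Apoa5, which promotes triglyceride clearance, at 587 and 566 FPKM in LL-PM2.5 against 285 and 354 FPKM in LD-FA, 0.86 ± 0.24. Without LL-PM2.5 replicate 1 the lipoprotein list had 1 higher and 2 lower. Of 24 cytochrome P450 genes of families 2 and 3, 3 were higher and 0 lower, with a median of -0.01. Without LL-PM2.5 replicate 1 there were 1 higher and 5 lower, with a median of -0.18, and 0 lay past that level in either direction when either LD-FA library was left out. Of 19 phase II conjugation genes, 1 was higher and 4 lower, with Sult5a1, a sulfotransferase, at 4.77 and 2.57 FPKM in LL-PM2.5 against 8.69 and 10.02 FPKM in LD-FA, -1.31 ± 0.27. The conjugation list had 2 higher and 6 lower without LL-PM2.5 replicate 1, 0 higher and 2 lower without LL-PM2.5 replicate 2, and 0 higher and 1 lower without LD-FA replicate 1. Of 14 genes of the urea cycle and nitrogen handling, 1 was higher and 2 lower, with Arg1, arginase of the urea cycle, at 0.63 ± 0.27, and 0 were higher when any library other than LL-PM2.5 replicate 1 or those of LD-PM2.5 was left out. Of 14 retinoic acid genes, Cyp26a1 was higher and Dhrs3, a retinaldehyde reductase, lower at -0.49 ± 0.11, and 4 were higher without LL-PM2.5 replicate 2. Of 7 genes of MHC class II presentation, 0 were higher and 0 lower, with a median of 0.39, which was 0.73 without LL-PM2.5 replicate 1, with 4 higher, and -0.04 without LL-PM2.5 replicate 2.

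Genes outside every list also stood apart, and 2 are named after their values were seen. Abcd2, a peroxisomal importer of very long chain fatty acids, had 3.93 and 4.87 FPKM in LL-PM2.5, 1.85 and 0.539 in LL-FA, 0.815 and 1.07 in LD-PM2.5, and 0.394 and 0.471 in LD-FA, with a log2 fold change of 3.31 ± 0.51. Both LL-PM2.5 libraries exceeded the other 6. Chka, choline kinase, had 10.8 and 15.6 FPKM in LL-PM2.5 against 31.7 and 30.6 FPKM in LD-FA, -1.24 ± 0.23. Their adjusted p-values in edgeR were 0.214 and 0.301 in that order.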
